A study of Homo sapiens with 14 samples.

Results

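The genes described here are the cadherins and protocadherins of CHP-134 cells, taken as every entry of the deposited count tables whose symbol starts with CDH followed by a digit or with PCDH. The rule found 93 gene identifiers with 88 symbols among 19726 identifiers in a pair of tables. The OmoMYC table listed 68 of them among 17810 identifiers, and the parental table listed 88 among 19143. Of the 93 identifiers, 63 stood in both tables.

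RNA-seq had been done on CHP-134, an established human neuroblastoma cell line with amplified MYCN. In the first experiment, cells carrying a lentiviral Tet-On construct for EGFP or for OmoMYC, selected as G418-resistant pools, received 1 µg/ml doxycycline for 3 days (n = 3 libraries each). OmoMYC consists of the part of MYC through which it pairs with other proteins, altered so that it takes up the partners of MYC and MYCN. In the second experiment, parental CHP-134 cells received 500 nM dTAG47 or the solvent DMSO for 18 h (n = 4 libraries each). dTAG47 is a degrader that bridges FKBP12(F36V)-tagged proteins to the ubiquitin ligase subunit cereblon, and the parental cells carry no such tag, so the comparison is a control for the compound itself. Both lines of the first experiment had received doxycycline and were engineered separately, so a difference between the lines and an effect of OmoMYC cannot be told apart. These are bulk libraries, in which fewer cells of a type and less RNA per cell cannot be told apart either.

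Cadherins are transmembrane proteins that join neighboring cells through calcium-dependent contacts between their extracellular repeats. Classical cadherins bind catenins inside the cell, and through them actin. In the neural crest, from which neuroblastoma arises, cells change the cadherins on their surface as they leave the neural tube and later gather into ganglia. Clustered protocadherins (the alpha, beta and gamma clusters on chromosome 5) are each transcribed from a promoter of their own, and neurons use different combinations of them to tell their own branches from those of other cells. Nonclustered protocadherins of the delta-1 and delta-2 groups stand alone in the genome and act in the sorting and migration of neural cells.

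The libraries held 28060817 to 38358128 counts in the OmoMYC experiment and 40861430 to 53451641 in the parental one. Values are counts per 1000000 counts of a library (CPM), with library sizes scaled by the trimmed mean of M-values (TMM), and a gene was called induced or suppressed at a false discovery rate of 0.05 in edgeR's quasi-likelihood test over all tested genes. The 95% intervals are a normal approximation from the standard error (SE) and are narrower than that test implies. An interval can therefore leave out no change where the unadjusted p is above 0.05. Read counts on MYC, from which OmoMYC is derived, rose from 0.61 ± 0.0684 CPM in EGFP cells to 522.0 ± 7.85 CPM in OmoMYC cells (SD, n = 3). Of the markers of noradrenergic neuroblastoma cells, the transcription factor HAND2 stood at 258.0 ± 19.8 CPM in EGFP cells and 275.0 ± 12.2 CPM in OmoMYC cells, whereas the catecholamine enzymes TH (0.238 and 0.769 CPM) and DBH (0.405 and 1.16 CPM) were low. The glial marker S100B reached at most 0.296 CPM in any of the 6 libraries. The annotation and strand setting used in counting are not given in the sources used here, so reads from overlapping or antisense genes cannot be separated.

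The clustered protocadherins are shown first by the sequence in front of their first exons, because a short element with the core CGCT is known to lie there and differs between the clusters. The stretches that follow come from RefSeq promoters (GRCh38.p14), were placed on GRCh37 by exact match and are written 5′ to 3′ on the plus strand. Each lies upstream of the gene's first exon, with 0 bases in its annotated exons. Capitals mark the letters around the core, which begin at positions -76 to -42 from the start. The longer spellings TGTCGCT, GGTGGCGCT and GCCGCTGT were chosen after the promoters had been read.
PCDHA4 (chr5:140186551-140186610): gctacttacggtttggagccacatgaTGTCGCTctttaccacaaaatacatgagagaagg
PCDHA5 (chr5:140201114-140201173): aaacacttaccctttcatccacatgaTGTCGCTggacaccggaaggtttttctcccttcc
PCDHAC1 (chr5:140305792-140305851): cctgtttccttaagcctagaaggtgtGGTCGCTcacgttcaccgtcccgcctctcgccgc
PCDHB3 (chr5:140479962-140480021): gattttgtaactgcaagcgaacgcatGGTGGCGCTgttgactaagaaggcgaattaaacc
PCDHB12 (chr5:140588200-140588259): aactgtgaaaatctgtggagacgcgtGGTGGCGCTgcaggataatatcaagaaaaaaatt
PCDHGB1 (chr5:140729580-140729639): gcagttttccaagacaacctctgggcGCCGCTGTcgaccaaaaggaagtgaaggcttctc
PCDHGA9 (chr5:140782269-140782328): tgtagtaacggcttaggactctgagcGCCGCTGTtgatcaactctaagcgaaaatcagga
PCDHGA10 (chr5:140792486-140792545): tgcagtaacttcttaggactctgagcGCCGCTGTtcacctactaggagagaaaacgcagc

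Each spelling belonged mostly to a single cluster. On either strand of the 250 bases before the start, TGTCGCT was found in 10 of 13 alpha promoters (76.9%) and in 1.32% of all 35116 promoters. GGTGGCGCT was found in 11 of 13 beta promoters (84.6%) against 0.41% of all promoters, and GCCGCTGT in 12 of 23 gamma promoters (52.2%) against 1.23%. TGTCGCT was also found in 3 of the gamma promoters. All 3 spellings hold CGCT, which itself occurred in the last 100 bases of 12 of 13 alpha, 12 of 13 beta and 20 of 23 gamma promoters and of 44.8% of all promoters. A promoter was found for 68 of the 88 symbols.

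The MYC proteins bind the E-box CACGTG and, more weakly, other sequences of the form CANNTG, of which it is a special case. In the 250 bases before the start, on either strand, CACGTG occurred in 6.34% of all promoters. It occurred in those of PCDHA9, PCDHA10 and PCDHA11, in 0 of 13 beta promoters, in 0 of 23 gamma promoters and in 0 of 38 promoters of members outside the clusters. These 38 promoters belong to 23 genes. CDH6, CDH11, CDH15, CDH24, PCDH10 and PCDH20 had no promoter to search, so the absence does not cover them. CANNTG occurred in 20 of those 38 (52.6%) and in 61.8% of all promoters. The last 100 bases before the RefSeq start are given for 4 members that differed in OmoMYC cells, induced (PCDH1, CDH12) and suppressed (CDH7, PCDH18), on the strand of each gene and with CANNTG in capitals. The start used for PCDH1 lies inside the span of the gene in GENCODE, so its stretch precedes an internal start, whereas the other stretches end where the gene begins.
PCDH1 (chr5:141249193-141249292, minus strand): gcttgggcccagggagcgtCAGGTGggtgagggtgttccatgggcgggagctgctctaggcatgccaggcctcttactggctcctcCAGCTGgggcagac
CDH12 (chr5:22853454-22853553, minus strand): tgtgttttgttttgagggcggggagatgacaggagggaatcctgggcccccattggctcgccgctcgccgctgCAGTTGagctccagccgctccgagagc
CDH7 (chr18:63417388-63417487, plus strand): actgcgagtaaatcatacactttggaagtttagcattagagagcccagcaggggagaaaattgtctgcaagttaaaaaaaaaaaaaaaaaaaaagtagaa
PCDH18 (chr4:138453649-138453748, minus strand): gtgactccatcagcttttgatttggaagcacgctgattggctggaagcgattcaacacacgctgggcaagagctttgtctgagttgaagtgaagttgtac
CDH7 and PCDH18 hold no CANNTG in these 100 bases, and a match or its absence in such a window is a description of the letters alone. In the last 100 bases CANNTG occurred in 8 of 38 promoters of members outside the clusters (21.1%) and in 32.3% of all promoters. The 4 stretches are a selection and do not compare induced with suppressed members.

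OmoMYC cells had more RNA of CDH6, CDH12, CDH8, PCDH9, PCDH1, CDH15, PCDH20 and PCDH12 than EGFP cells, each by over 2-fold. The neuronal cadherin CDH2 and the delta-2 protocadherins PCDH10 and PCDH17 rose by less. CDH7, PCDH18, PCDH8, CDH11, CDH23, CDH24, CDH19 and PCDH7 fell. Of the 68 listed members 48 had enough counts to be tested, and 23 of these were called (47.9%), against 53.0% of all 13803 genes tested. In each direction, 15 members were induced (31.2%, against 27.3% of all genes) and 8 were suppressed (16.7%, against 25.7%). Called changes past 2-fold numbered 8 upward (16.7%, against 6.68%) and 1 downward (2.08%, against 1.56%). With a correction for GC content and length they numbered 7 upward (14.6%, against 5.04%) and 3 downward (6.25%, against 2.15%). PCDH12 was then no longer among those past 2-fold (log2 fold change 0.73). In both sets of counts, CDH12 and CDH8 upward and CDH19 downward passed the count filter only through the group where they were high. The groups did not overlap in 23 members (47.9%, against 62.3% of all genes).

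The median log2 fold change of the 48 members was 0.29, with 33 higher and 15 lower, against 0.01 for all tested genes. Without sign, the medians were 0.53 and 0.31. A correction of each library for GC content and length moved the median of the members to 0.09, with 28 higher and 20 lower, and that of all genes to -0.10.

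**Figure D1:**
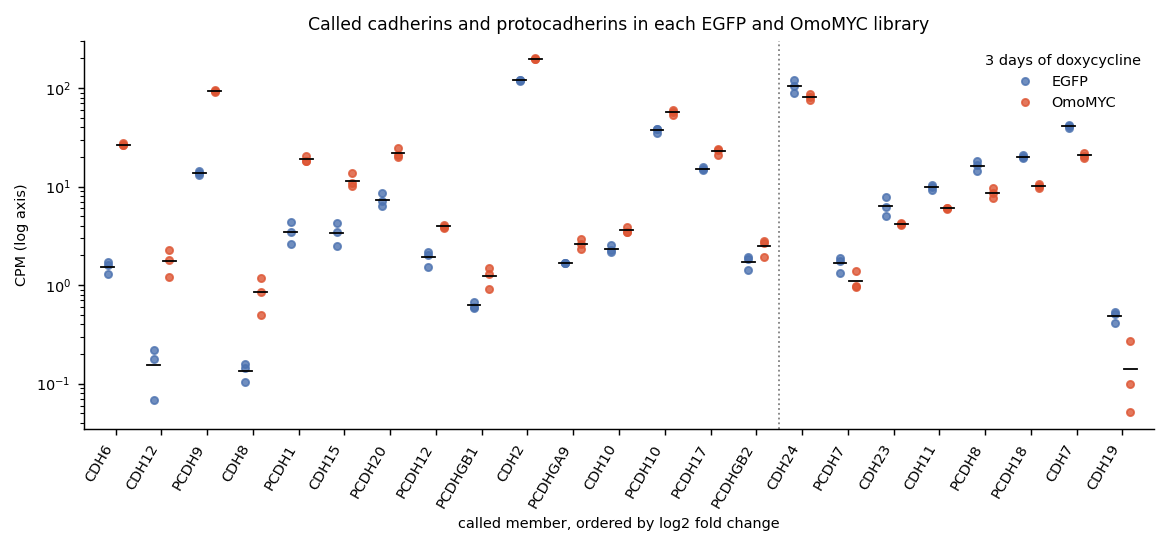
CPM on a log axis in each of the 3 EGFP and 3 OmoMYC libraries for the called members, 15 induced and 8 suppressed. Points are libraries and dashes group means, and the 2 groups stand apart in every called member except PCDH7 and PCDHGB2.

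Among the type I classical cadherins, which carry the adhesion of most tissues, 2 of 4 tested members were induced and 0 were suppressed. Over all genes, 27.3% were induced and 25.7% suppressed. CDH2 (N-cadherin; ENSG00000170558.4, chr18:25512843-25757910, minus strand), the main classical cadherin of neural tissue, stood at 120.4, 119.0 and 120.3 CPM in the EGFP libraries and at 199.7, 198.0 and 197.0 CPM in the OmoMYC libraries. The replicates lay close together and the groups were far apart. This is a log2 fold change of 0.72 (SE 0.06, 95% interval 0.61 to 0.84, adjusted p = 7.24e-06). CDH15 (M-cadherin; ENSG00000129910.3, chr16:89238156-89261900), known from skeletal muscle precursors, stood at 2.49, 3.47 and 4.24 CPM in EGFP cells and at 10.1, 10.8 and 13.6 CPM in OmoMYC cells. No OmoMYC library came near the EGFP range, and the log2 fold change was 1.76 (SE 0.18, adjusted p = 3.56e-05), and 1.31 with the correction for GC content and length.

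The remaining type I members were not called. CDH4 (R-cadherin), a retinal and neural cadherin, stood at 1.07, 1.22 and 2.24 CPM in EGFP cells and 1.43, 2.28 and 2.47 CPM in OmoMYC cells, with a log2 fold change of 0.46 (adjusted p = 0.207). The groups overlapped through EGFP replicate 3, and without it the log2 fold change was 0.83 (adjusted p = 0.0165), but with the correction for GC content and length it was -0.00 (adjusted p = 0.998). Under that correction the tested type I members were 2 higher and 2 lower, against 4 and 0 without it. CDH3 (P-cadherin) stood at 1.36 ± 0.137 and 1.66 ± 0.338 CPM (log2 fold change 0.28, adjusted p = 0.284). CDH1 (E-cadherin), the epithelial cadherin, had 0, 1 and 0 counts in the EGFP libraries and 3, 4 and 5 counts in the OmoMYC libraries and was not tested.

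The type II classical cadherins, many of which mark groups of neurons and neural crest cells, moved in both directions. Of 11 tested members 4 were induced (36.4%, against 27.3% of all genes) and 4 suppressed (36.4%, against 25.7%). The median log2 fold change was 0.22, and -0.05 with the correction for GC content and length. CDH6 (ENSG00000113361.8, chr5:31193793-31329253), a cadherin of the dorsal neural tube and kidney, had the largest rise of all members. It stood at 1.61, 1.29 and 1.72 CPM in EGFP cells, from 36 to 51 counts per library, and at 27.6, 26.1 and 26.2 CPM in OmoMYC cells, from 796 to 1006 counts. Its log2 fold change was 4.10 (SE 0.12, 95% interval 3.87 to 4.34, adjusted p = 2.4e-09), and it stayed between 3.97 and 4.15 when any library was left out.

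CDH12 and CDH8, brain cadherins of the same type, were rare in EGFP cells. Their means of 0.955 and 0.491 CPM lie under the 1 CPM of the naming rule, and both were chosen after their values were seen. CDH12 (ENSG00000154162.9, chr5:21750782-22853453, minus strand) had 7, 5 and 2 counts in the EGFP libraries and 66, 69 and 37 in the OmoMYC libraries, or 0.156 ± 0.0785 and 1.75 ± 0.518 CPM. All OmoMYC libraries were higher, with a log2 fold change of 3.44 (SE 0.39, adjusted p = 6.25e-05). CDH8 (ENSG00000150394.9, chr16:61681146-62070939, minus strand) had 5, 4 and 3 counts against 35, 33 and 15 (log2 fold change 2.61, SE 0.45, adjusted p = 0.000861). Both genes stayed below 3 CPM in every library, and their intervals were wide, 2.67 to 4.21 for CDH12 and 1.72 to 3.50 for CDH8 on the log2 scale. CDH10 (ENSG00000040731.6), expressed in the brain as well, rose from 2.33 ± 0.196 to 3.61 ± 0.215 CPM (log2 fold change 0.63, SE 0.14, adjusted p = 0.00394).

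The type II members that fell included more abundant genes. CDH7 (ENSG00000081138.9, chr18:63417488-63557573), known from migrating neural crest, stood at 42.1, 41.4 and 39.1 CPM in EGFP cells and at 19.5, 20.5 and 22 CPM in OmoMYC cells. With no overlap, this is a log2 fold change of -0.98 (SE 0.08, adjusted p = 6.99e-06). CDH11 (ENSG00000140937.9, chr16:64977656-65160015, minus strand), a mesenchymal and osteoblast cadherin, stood at 9.97, 9.31 and 10.4 CPM and at 6.04, 5.89 and 6.12 CPM (log2 fold change -0.72, SE 0.10, adjusted p = 0.000242). The groups did not overlap.

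CDH24 (ENSG00000139880.15, chr14:23516271-23526747, minus strand), the most abundant type II member, stood at 88.6, 105.0 and 120.0 CPM in EGFP cells and at 80.5, 75.9 and 86.1 CPM in OmoMYC cells. The groups came close without overlapping. It had a log2 fold change of -0.37 (SE 0.11, adjusted p = 0.0127), and -0.81 with the correction for GC content and length. CDH19 (ENSG00000071991.4), known from Schwann cell precursors, had 16, 15 and 12 counts against 8, 2 and 3 (log2 fold change -1.84, SE 0.50, adjusted p = 0.0104), and was named after its values were seen. CDH22 (1.26 ± 0.0806 and 1.53 ± 0.111 CPM) did not overlap between groups but was not called (adjusted p = 0.215).

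Of the cadherins outside both classical types, 2 had enough counts to be tested. CDH23 (ENSG00000107736.15, chr10:73156677-73575704), a component of the tip links of inner ear hair cells, stood at 4.98, 6.27 and 7.92 CPM in EGFP cells and at 4.23, 4.18 and 4.05 CPM in OmoMYC cells. EGFP replicates were spread and OmoMYC replicates were close to each other. The log2 fold change was -0.62 (SE 0.16, adjusted p = 0.00929), and -1.19 with the correction for GC content and length. CDH13 (T-cadherin), which is anchored to the membrane by a lipid and lacks a cytoplasmic tail, stood at 0.631, 0.215 and 0.517 CPM against 0.477, 0.26 and 0.0987 CPM. These ranges overlapped, and the interval of the log2 fold change ran from -1.76 to 0.29 (adjusted p = 0.26).

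Among the delta-1 protocadherins 2 of 5 were induced and 1 was suppressed, against 27.3% and 25.7% of all genes. PCDH9 (ENSG00000184226.10, chr13:66876966-67804577, minus strand), a brain protocadherin, stood at 14.3, 13.2 and 13.8 CPM in EGFP cells and at 95.2, 90.2 and 93.0 CPM in OmoMYC cells. Every OmoMYC library was far above every EGFP library, and the log2 fold change was 2.75 (SE 0.08, 95% interval 2.60 to 2.90, adjusted p = 1.55e-09). PCDH1 (ENSG00000156453.9, chr5:141232655-141258811, minus strand), expressed in epithelia and neural tissue, stood at 2.62, 3.47 and 4.37 CPM and at 18.2, 18.2 and 20.2 CPM. Its log2 fold change was 2.44 (SE 0.15, adjusted p = 9.3e-07).

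PCDH11X and PCDH7 of the same group did not rise. PCDH11X stood at 11.5 ± 0.946 and 10.9 ± 0.711 CPM (log2 fold change -0.07, adjusted p = 0.586), and its near-identical copy PCDH11Y, between which reads may be split, is therefore uncertain (log2 fold change 0.52, adjusted p = 0.107, and 0.65 with adjusted p = 0.0498 after the correction for GC content and length). PCDH7 (ENSG00000169851.11) stood at 1.89, 1.33 and 1.76 CPM in EGFP cells and at 0.955, 0.986 and 1.38 CPM in OmoMYC cells. The groups overlapped, and the call (log2 fold change -0.59, adjusted p = 0.0473) was lost with library size only (0.0531), with DESeq2 (0.0993) and without EGFP replicate 1 (0.117), EGFP replicate 3 (0.0742), OmoMYC replicate 1 (0.139) or OmoMYC replicate 2 (0.124).

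The delta-2 protocadherins, several of which recruit the actin-branching WAVE complex through their tails, split into 2 induced and 2 suppressed members with 1 not called. Of all genes, 27.3% were induced and 25.7% suppressed. PCDH10 (ENSG00000138650.7, chr4:134070449-134129761), needed for axon growth in the forebrain, stood at 35.2, 38.2 and 38.4 CPM in EGFP cells and at 57.6, 52.8 and 59.2 CPM in OmoMYC cells (log2 fold change 0.60, SE 0.08, adjusted p = 0.000152). PCDH17 (ENSG00000118946.7) stood at 15, 15.7 and 14.6 CPM and at 20.7, 24.3 and 23.5 CPM (log2 fold change 0.59, SE 0.09, adjusted p = 0.000417). In neither did the groups overlap. PCDH18 (ENSG00000189184.7, chr4:138440072-138453648, minus strand) went the other way, from 20.8, 19.4 and 20.1 CPM to 10.6, 9.78 and 10.2 CPM (log2 fold change -0.98, SE 0.09, adjusted p = 1.17e-05). PCDH8 (ENSG00000136099.9), which binds and internalizes N-cadherin at synapses, went from 14.3, 16.5 and 18.1 CPM to 9.65, 7.68 and 8.52 CPM (log2 fold change -0.92, SE 0.12, adjusted p = 0.000155, and -1.31 with the correction for GC content and length). All OmoMYC libraries of both genes lay below all EGFP libraries.

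PCDH19 (ENSG00000165194.10), a partner of N-cadherin linked to epilepsy, stood at 22.2, 24.2 and 26.1 CPM against 22.3, 22.2 and 23.7 CPM, with overlapping groups. Its log2 fold change was -0.09 with a 95% interval of -0.26 to 0.08 (adjusted p = 0.409), and -0.31 (adjusted p = 0.000205) with the correction for GC content and length. Of the other nonclustered protocadherins, PCDH20 (ENSG00000197991.10) stood at 8.58, 6.41 and 7.13 CPM in EGFP cells and at 24.9, 19.9 and 20.7 CPM in OmoMYC cells (log2 fold change 1.56, SE 0.13, adjusted p = 7.29e-06). PCDH12 (ENSG00000113555.4), a protocadherin of endothelium and trophoblast, stood at 1.51, 2.04 and 2.17 CPM and at 4.06, 3.84 and 3.91 CPM (log2 fold change 1.05, SE 0.16, adjusted p = 0.000423, and 0.73 with the correction for GC content and length). Neither gene had overlapping groups.

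**Figure D2:**
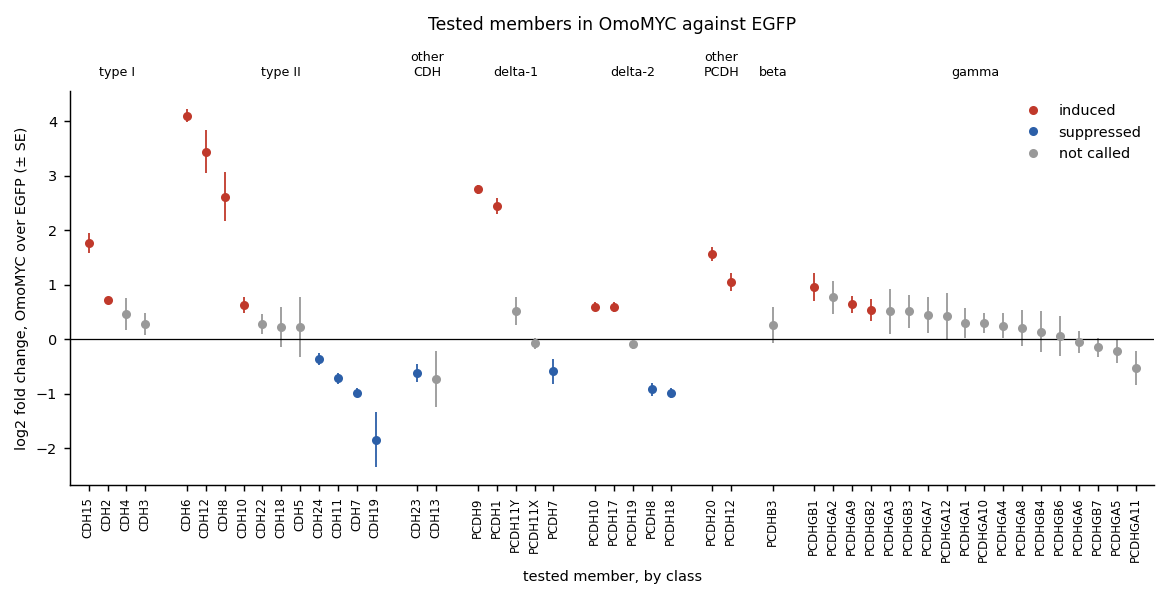
Log2 fold change of OmoMYC against EGFP, with bars of its standard error, for the 48 tested members by class. Members outside the clusters spread from -1.84 (CDH19) to 4.10 (CDH6), whereas the 18 gamma members lie between -0.53 and 0.96.

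The gamma protocadherins had log2 fold changes between -0.53 and 0.96. Of 21 listed members 18 were tested, with 3 induced (16.7%, against 27.3% of all genes) and 0 suppressed (against 25.7%), and the groups did not overlap in 2 (11.1%, against 62.3%). The median log2 fold change was 0.30 with 14 higher and 4 lower, and 0.09 with 12 higher and 6 lower after the correction for GC content and length. Summed over the cluster, the level was 16.9, 18.2 and 18.6 CPM in EGFP cells and 21.1, 22 and 21.5 CPM in OmoMYC cells, a ratio of 1.2. All members of the gamma cluster share their last exons, as do those of the alpha cluster, and how reads on these exons were counted is not given in the sources used here.

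PCDHGB1 (ENSG00000254221.1) stood at 0.599, 0.68 and 0.586 CPM in EGFP cells and at 1.3, 0.908 and 1.48 CPM in OmoMYC cells. The log2 fold change was 0.96 (SE 0.26, adjusted p = 0.0108, and 0.0529 without OmoMYC replicate 3). With the correction for GC content and length it was 0.64 (adjusted p = 0.0498). PCDHGA9 (ENSG00000261934.1) stood at 1.67, 1.68 and 1.69 CPM against 2.59, 2.93 and 2.3 CPM, with a log2 fold change of 0.64 (SE 0.16, adjusted p = 0.00777). Its call was lost with the correction for GC content and length (0.37, adjusted p = 0.0828) and without OmoMYC replicate 2 (0.51, adjusted p = 0.0548). In both genes every OmoMYC library was above every EGFP library. PCDHGA10, whose promoter stretch carries the same GCCGCTGT, stood at 1.51, 1.36 and 2.03 CPM against 1.94, 2.15 and 1.91 CPM and was not called (log2 fold change 0.30, adjusted p = 0.217).

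PCDHGB2 (ENSG00000253910.1) stood at 1.42, 1.83 and 1.93 CPM against 1.91, 2.7 and 2.83 CPM, and these ranges overlapped. Its log2 fold change of 0.53 (adjusted p = 0.0456) fell to 0.23 with the correction for GC content and length, and the call was lost with DESeq2 (0.0998) and without EGFP replicate 1 (0.132), EGFP replicate 2 (0.0913), OmoMYC replicate 2 (0.168) or OmoMYC replicate 3 (0.179). PCDHGB7, the gamma member with the highest mean, stood at 2.33, 2.15 and 2.45 CPM against 2.25, 2.34 and 1.61 CPM (log2 fold change -0.15, adjusted p = 0.495, and -0.46 with adjusted p = 0.0387 after the correction). PCDHGC3, the most widely expressed gamma isoform in many tissues, had 1 to 9 counts per library and was not tested.

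The alpha and beta clusters could not be compared in the OmoMYC experiment. Its table listed 11 alpha and beta identifiers with 11 to 29 counts in all per library, whereas the parental table listed 31 with 4612 to 6414 counts. PCDHA9, the single alpha entry, and PCDHB11 had 0 counts in all 6 libraries, against means of 198 and 708 counts in the parental table. PCDHA4 was not listed, against a mean of 886 counts, and neither were PCDHA10 and PCDHA11, which with PCDHA9 hold the CACGTG named above. Neighbors of the clusters were counted in both tables, with means of 2282 and 3550 counts for ZMAT2, 1997 and 3050 for TAF7 and 7242 and 10615 for DIAPH1, and the 21 gamma members had 509 to 847 and 818 to 1205 counts in all. SLC25A2, between the beta and gamma clusters, was unlisted in the OmoMYC table as well and low in the parental one.

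Other genes outside chromosome 5 differed between the tables in the same way. The cohesin subunit SMC1A stood at 1.13 CPM in EGFP cells and 317 CPM in DMSO cells, under the same identifier. The histone methyltransferase EHMT2 stood at 0.0579 and 114 CPM, but under identifiers that differ between the tables, and 6 of the 68 member identifiers of the OmoMYC table were not in the GENCODE annotation used here. Why these genes were low or unlisted in the OmoMYC table was not tested. The values of the beta members in that table carry the same doubt. PCDHB3, the only beta member tested, had 12, 8 and 10 counts against 12, 18 and 10 (log2 fold change 0.26, 95% interval -0.39 to 0.91, adjusted p = 0.532).

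**Figure D3:**
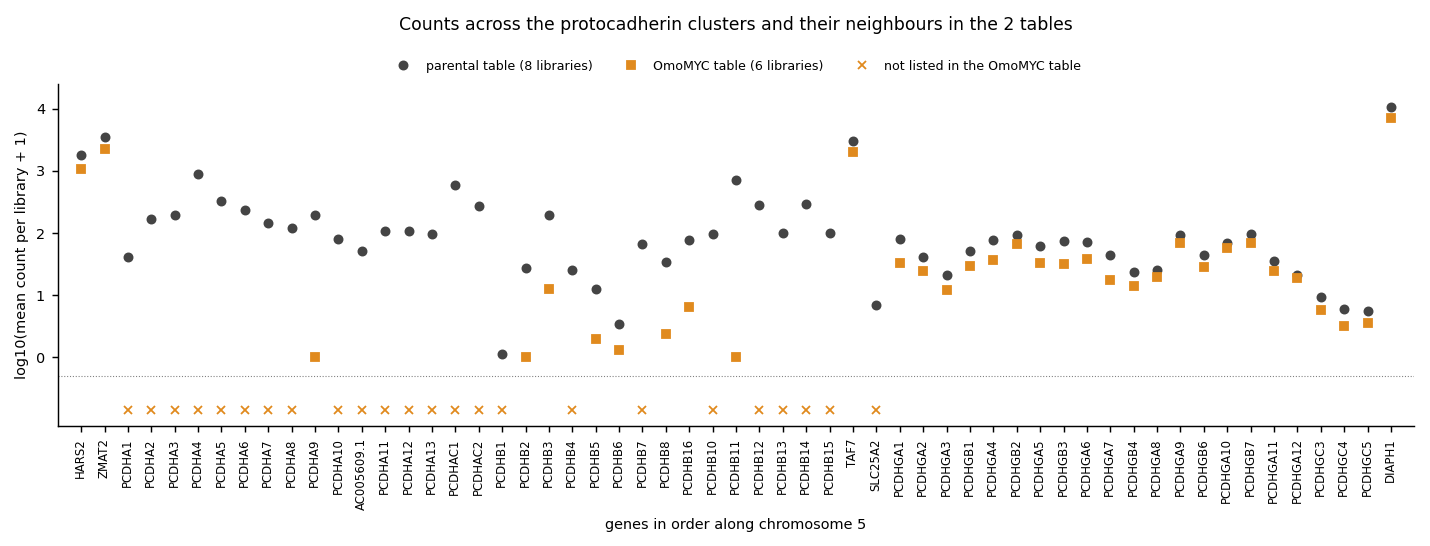
Log10 of the mean count per library plus 1 for the alpha, beta and gamma protocadherins and their neighbors on chromosome 5, in the OmoMYC and the parental table, matched by symbol. Gamma members and the outer neighbors have counts in both tables, while every alpha and beta member is lower or not listed (crosses) in the OmoMYC table.

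In parental cells all 3 clusters were expressed, and dTAG47 changed no member past the threshold. Of 88 listed members 75 were tested and 0 were called by edgeR, against 0.159% of 14470 genes (0.117% induced and 0.0415% suppressed). DESeq2 also called 0, against 0.338% of genes induced and 0.115% suppressed. An unadjusted p under 0.05 was reached by 5 members (6.67%, against 7.28% of all genes), and the groups did not overlap in 2 (2.67%, against 3.34%). The median log2 fold change was -0.05, with 27 higher and 48 lower, and the median without sign was 0.12, against 0.06 for all genes. The 95% interval lay within 1 log2 unit of no change for 70 of the 75 members, and for all 51 members with a mean of at least 1 CPM. It lay within 0.5 log2 units for 42 of those 51. These counts rest on the normal approximation and would be no larger with the wider intervals of the test.

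With a term that separates replicates 1 and 2 from replicates 3 and 4, 374 genes were induced (2.58%) and 420 suppressed (2.90%), up from 23 in all without it, and 0 members were among them. Within replicates 1 and 2 alone, 0 members were called, against 0.0276% of genes induced and 0.0207% suppressed. Within replicates 3 and 4 alone, an analysis chosen after seeing the data, 5 were suppressed among 470 genes (3.24%, with 2.93% induced), namely PCDHA7, PCDHA9, PCDHA11, PCDHA13 and PCDHGB4. They had log2 fold changes of -0.29, -0.36, -0.33, -0.28 and -0.61 over all 8 libraries and adjusted p-values of 0.673 to 0.685.

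The alpha protocadherins summed to 82.9, 74.4, 74.8 and 77.7 CPM in DMSO and to 67.7, 77.3, 70.6 and 71.1 CPM with dTAG47. The groups overlapped through dTAG47 replicate 2. Of 15 members 2 were higher and 13 lower, with a median log2 fold change of -0.15. PCDHA4 (ENSG00000204967, chr5:140186622-140391932), the most abundant alpha member, stood at 20, 17.8, 17.9 and 19.2 CPM in DMSO and at 16.7, 18.7, 18.2 and 18.7 CPM with dTAG47. These ranges overlapped, and the interval of the log2 fold change (-0.05) ran from -0.17 to 0.07. PCDHAC1, of the divergent last alpha exons used in many neurons, stood at 12.8 ± 0.664 and 12.2 ± 0.329 CPM (log2 fold change -0.06).

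PCDHA8 was the alpha member with no overlap, at 2.64, 2.91, 2.73 and 2.76 CPM in DMSO and 2.19, 2.21, 2.55 and 2.09 CPM with dTAG47. This gave a log2 fold change of -0.29 (unadjusted p = 0.0171 in edgeR's quasi-likelihood test, adjusted p = 0.673). PCDHA7 had the same log2 fold change of -0.29 (3.31, 3.14, 3.78 and 3.22 against 2.33, 3.47, 2.35 and 2.74 CPM), but here dTAG47 replicate 2 lay within the DMSO range. PCDHA9 stood at 5.96, 4.14, 3.73 and 4.58 CPM against 2.73, 5.49, 3.17 and 2.9 CPM, and without dTAG47 replicate 2 its log2 fold change was -0.65 (adjusted p = 0.0409, with 0.221% of all genes suppressed and 0.358% induced in that fit).

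The beta protocadherins summed to 42.6 ± 1.3 CPM in DMSO and 41.5 ± 0.775 CPM with dTAG47 (SD, n = 4). PCDHB11, the most abundant, stood at 14.7 ± 0.461 and 14.8 ± 0.479 CPM (log2 fold change 0.01, 95% interval -0.10 to 0.12). PCDHB12 stood at 6.89, 6.76, 5.98 and 5.49 CPM against 5.74, 5.48, 5.12 and 5.23 CPM, with a single dTAG47 library above the lowest DMSO library (log2 fold change -0.22, unadjusted p = 0.0242 in edgeR's quasi-likelihood test). The gamma protocadherins summed to 21.8 ± 1.42 and 20.9 ± 1.63 CPM, and PCDHGB7 among them stood at 2.16 ± 0.373 and 1.8 ± 0.354 CPM (log2 fold change -0.26, 95% interval -0.58 to 0.05).

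**Figure D4:**
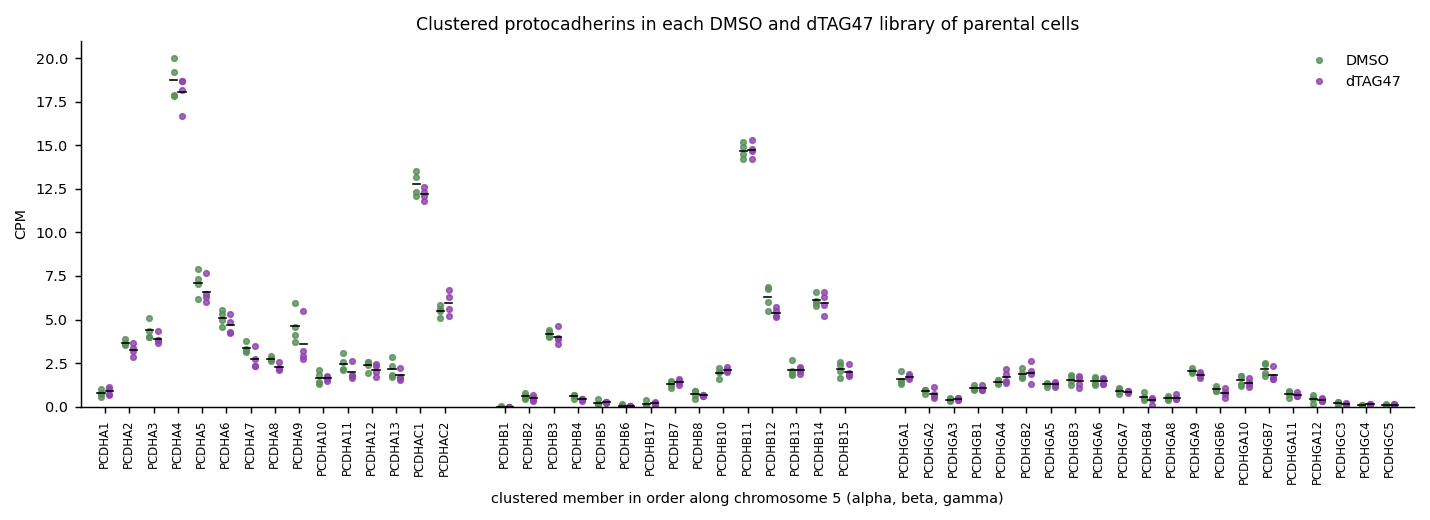
CPM on a linear axis in each of the 4 DMSO and 4 dTAG47 libraries for the listed alpha, beta and gamma protocadherins of parental CHP-134 cells. Points are libraries, dashes are group means, levels differ far more between members than between treatments, and PCDHA4, PCDHB11 and PCDHAC1 have the highest values.

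The classical cadherins of parental cells kept close to their DMSO levels. CDH2 stood at 130.4, 135.0, 132.0 and 129.0 CPM in DMSO and at 132.0, 130.1, 129.0 and 129.0 CPM with dTAG47, which overlap (log2 fold change -0.02, 95% interval -0.09 to 0.06). CDH24 stood at 133.0 ± 7.85 and 131.0 ± 9.29 CPM, and CDH7 at 57.0 ± 2.42 and 55.1 ± 3.62 CPM. CDH6 was the other member whose groups did not overlap, at 1.12, 1.34, 1.17 and 1.3 CPM against 1.51, 1.58, 1.45 and 1.47 CPM, with a log2 fold change of 0.28 (95% interval 0.01 to 0.55, adjusted p = 0.673). CDH26, an epithelial cadherin of low level here, stood at 0.419 ± 0.0954 and 0.259 ± 0.0651 CPM (log2 fold change -0.69, unadjusted p = 0.027 in edgeR's quasi-likelihood test). Of the nonclustered protocadherins, PCDH9 stood at 6.72 ± 0.296 and 6.85 ± 0.563 CPM, PCDH1 at 2.43 ± 0.192 and 2.55 ± 0.133 CPM and PCDH10 at 9.92 ± 0.5 and 9.26 ± 0.535 CPM.

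**Figure D5:**
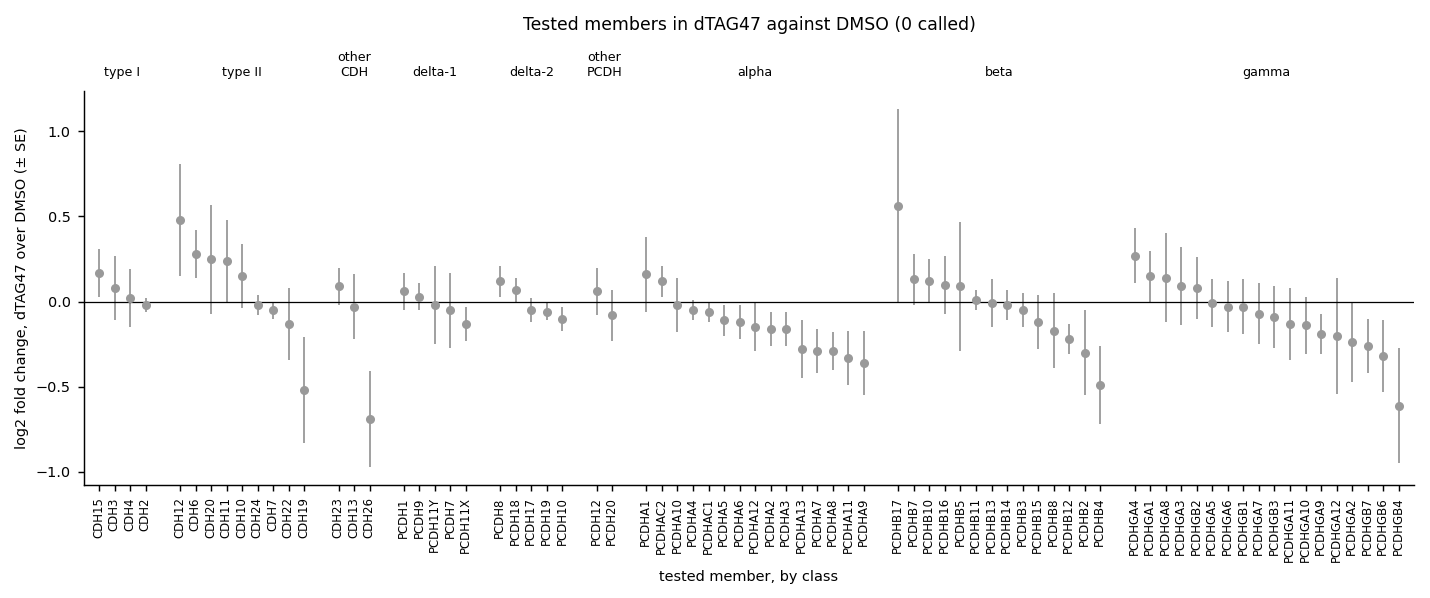
Log2 fold change of dTAG47 against DMSO in parental CHP-134 cells, with bars of its standard error, for the 75 tested members by class. The values run from -0.69 (CDH26) to 0.56, and no member is called.

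Levels per length order the members differently from CPM. In CPM per kilobase of exon, or of the member's own coding exon for the alpha and gamma clusters, CDH24 (27.9) and CDH2 (14) led in EGFP cells, followed by PCDH10 (3.66), PCDH8 (3.16), PCDH18 (3.01) and CDH7 (2.81). In OmoMYC cells CDH2 (23.1) and CDH24 (21.6) came closer together, and PCDH10 (5.55), PCDH20 (3.44), PCDH1 (3.19), PCDH9 (3.0), PCDH17 (2.72), CDH15 (2.47), PCDH19 (2.33) and CDH6 (2.14) followed, while PCDH18 stood at 1.53 and CDH7 at 1.42. In DMSO-treated parental cells CDH24 (35.5) and CDH2 (15.3) were followed by PCDHA4 (7.83) and PCDHAC1 (5.2). The 2 alpha values were divided by 2394 and 2454 bases of own coding exon, not 13426 and 7016 exon bases. Their rank therefore depends on the unit. Among members taken over all exon bases, CDH7 (3.92) and PCDHB11 (3.52) came next. These are levels, not differences, and neighbors in the order were not tested against each other.

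Side by side, control cells of both experiments had like levels of some members and not of others, without a test because the tables were made separately. CDH2 stood at 120.0 CPM in EGFP cells and 132.0 CPM in DMSO cells, PCDH19 at 24.2 and 22.7 CPM and CDH6 at 1.54 and 1.23 CPM. CDH11 stood at 9.89 and 0.659 CPM, PCDH10 at 37.3 and 9.92 CPM and PCDH20 at 7.37 and 1.72 CPM. For these last genes the control cells differed by more than OmoMYC and EGFP cells did.

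The proteins that work with cadherins gave mixed results in OmoMYC cells, where the shares over all genes were 27.3% induced and 25.7% suppressed. Of 9 tested catenins and related armadillo proteins, 4 were induced and 3 suppressed (median log2 fold change 0.14). The neural alpha-catenin CTNNA2 rose from 16.6 ± 0.884 to 34.8 ± 1.25 CPM (log2 fold change 1.07), ARVCF, a relative of p120-catenin, from 34.5 ± 5.12 to 73.1 ± 9.28 CPM (1.08), whereas the alpha-catenin relative CTNNAL1 fell from 132.0 ± 16.7 to 73.0 ± 4.83 CPM (-0.85). Beta-catenin (CTNNB1), which ties classical cadherins to alpha-catenin, stood at 253.0 ± 17.5 and 262.0 ± 8.2 CPM (adjusted p = 0.558), p120-catenin (CTNND1) at 154.0 ± 4.79 and 169.0 ± 4.26 CPM (adjusted p = 0.0914), and alpha-catenin (CTNNA1) fell from 247.0 ± 5.09 to 216.0 ± 3.59 CPM (log2 fold change -0.19, adjusted p = 0.0214).

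Against the same shares of 27.3% and 25.7%, 8 of 17 tested cadherin superfamily genes that are not members were induced and 1 was suppressed, with the synaptic calsyntenin CLSTN3 rising most (log2 fold change 1.34) and the giant cadherin FAT3 falling (-0.43). Of 18 tested chromatin regulators of the clustered promoters 3 were induced and 6 suppressed. CTCF, which binds these promoters, stood at 115.0 ± 6.33 and 120.5 ± 4.0 CPM (adjusted p = 0.423). The cohesin subunit RAD21 fell from 406.0 ± 54.2 to 295.0 ± 10.7 CPM and the silencing protein SMCHD1 from 162.0 ± 21.0 to 118.0 ± 2.81 CPM, both with a log2 fold change of -0.46. REST, a repressor of neuronal genes, fell by 0.66 on the log2 scale and the cohesin loader MAU2 rose by 0.76.

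The shares over all genes (27.3% induced, 25.7% suppressed) hold for the remaining lists as well. Among 7 tested transcription factors of the cadherin switch, by which cells exchange E-cadherin for N-cadherin, SNAI3 was induced (log2 fold change 0.97) and ZEB2 (-0.58) and TWIST1 (-0.42) were suppressed. Of 9 tested genes of cadherin shedding 4 were induced and 0 suppressed, with the metalloprotease ADAM9 at 1.01. Of 12 WAVE complex genes and protocadherin kinases 3 were induced and 5 suppressed, with CYFIP2 at 0.78 and NCKAP1 at -0.37. Of 11 noradrenergic markers 7 were induced, and of 10 tested mesenchymal and Schwann-like markers 1 was induced and 4 were suppressed. The part of these markers in the changes of CDH6, CDH11 or CDH19 was not tested. With dTAG47, CELSR2, a planar polarity cadherin, was suppressed (94.6 ± 6.64 to 64.4 ± 5.29 CPM, log2 fold change -0.55, adjusted p = 0.000759), and 0 other genes of the 6 lists of partners and relatives were called. Of the markers, 0 of 11 noradrenergic genes were called and 1 of 10 mesenchymal and Schwann-like genes was induced. With dTAG47 the shares over all genes were 0.117% induced and 0.0415% suppressed.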

How the data were processed

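Reads were trimmed by the authors with Cutadapt, mapped to hg19 using STAR and assigned to genes using FeatureCounts. What they deposited are raw counts, not normalized, in a separate table for each experiment. All 14 libraries were used and grouped by their labels. Replicates are biological replicates according to the study's methods.

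In each table, genes were filtered with filterByExpr, scaled by TMM and tested over all genes with the robust quasi-likelihood test of edgeR 4.0.16 (limma 3.58.1, R 4.3.3), with Benjamini-Hochberg adjustment at 0.05. DESeq2 (1.42.0), the authors' tool, was an alternative. The others were RLE factors, unscaled library sizes, an omitted or stricter filter (10 counts in every library), a replicate block, a correction for GC content and length, and leaving out each library. Fits were tested on simulated data. Gene positions came from GENCODE v44 lifted to GRCh37.

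The genes named are CDH1, CDH2, CDH4, CDH11, CDH13, PCDH1, PCDH7, PCDH9, PCDH10, PCDH17, PCDH19, PCDHGC3 and 7 partners. In each class, up to 4 largest called rises and 4 falls at a mean of at least 1 CPM and the most abundant member were added, with the 4 smallest p-values under dTAG47 and the largest called rise and fall of each partner list. Others were chosen after their values were seen, and some marker genes are not reported here. The members and lists were chosen with earlier results of these data known.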

Additional observations from a re-analysis of the deposited data

Results flagged for a closer look

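In the parental experiment, 4 of 66 groups of 4 libraries held a library far from the other 3 by Dixon's criterion, which chance gives in about 1 of 20 groups. CDH1 stood at 0.316 CPM in dTAG47 replicate 2, from 17 counts, and at 0.0, 0.0199 and 0.0 CPM in the other dTAG47 libraries. PCDHA9 stood at 5.49 CPM in dTAG47 replicate 2 against 2.73, 3.17 and 2.9 CPM, and CDH7 at 60.5 CPM there against 52.7, 53.6 and 53.7 CPM. CDH10 stood at 1.62 CPM in DMSO replicate 1 against 1.08, 1.1 and 1.05 CPM.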

How the results depend on the processing

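In OmoMYC cells, 13 to 17 members were induced and 7 to 11 suppressed over all alternatives. The shares of all genes called in each of these fits are not given here, so the ranges describe the members alone. All genes shifted too: with the correction for GC content and length 5366 were higher and 8437 lower, against 7050 and 6753 in the main fit. Apart from PCDH7, PCDHGB1, PCDHGA9 and PCDHGB2, every called member kept its call in each alternative that tested it. CDH12, CDH8 and CDH19, with counts as low as 2, 3 and 2, were not tested under the stricter filter. Members that gained a call under some alternatives were CDH4, PCDH19, PCDHGB7, PCDH11Y, PCDHGA2, PCDHGA11 (-0.73 with the correction for GC content and length, -0.81 without EGFP replicate 1) and PCDHGB3 (0.84 without EGFP replicate 2). CDH4 moved to -0.00 with the correction for GC content and length. In parental cells, leaving out a library gave 0 to 1 suppressed members (1 without dTAG47 replicate 2), and replicates 3 and 4 alone gave 5.

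Among the genes named by rule, the log2 fold changes with dTAG47 that changed sign were small. They were PCDHB11 with library size only (-0.00), and with the correction for GC content and length CDH13 (0.01), CDH2 (0.04), CDH4 (-0.01), CDH7 (0.05) and PCDHA4 (0.02). Replicates 1 and 2 alone gave CDH13 0.00, PCDH7 0.06 and PCDHB11 -0.02, and replicates 3 and 4 alone gave CDH4 -0.13, PCDH18 -0.03, PCDH20 0.20, PCDH9 -0.04, PCDHB3 0.02 and PCDHGB2 -0.10. Leaving out a library moved CDH13 from -0.10 to 0.03, CDH4 from -0.07 to 0.16, PCDH7 from -0.15 to 0.03, CDH24 from -0.05 to 0.02, PCDHB11 from -0.01 to 0.03, PCDH20 from -0.18 to 0.00, PCDH9 from -0.02 to 0.07 and PCDHGB2 from -0.09 to 0.21. Members outside the naming rule changed sign as well, over wider ranges in PCDHB5 (-0.07 to 0.66) and PCDHGA12 (-0.47 to 0.05). The cause was not tested. Same-numbered libraries were not treated as pairs in the main fit. Their deviations correlated at -0.0697 to 0.293 in the OmoMYC experiment and 0.0093 to 0.159 in the parental one. Differently numbered libraries correlated at -0.291 to 0.252 and at -0.226 to 0.247. Whether the samples were set up in pairs cannot be read from these values. The replicate block gave 16 induced and 8 suppressed members with OmoMYC, and 0 and 0 with dTAG47. The shares over all genes in these fits are not given here either. Depth limits the members below 1 CPM most.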
